A study of Mus musculus with 6 samples.

Results

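The 9 genes described here encode the FGF receptors Fgfr1, Fgfr2, Fgfr3 and Fgfr4, the receptor-like protein Fgfrl1, the secreted FGF binding proteins Fgfbp1 and Fgfbp3, and the receptor substrates Frs2 and Frs3. They were chosen by symbol, as 9 of the 49452 genes in the expression table. RNA-seq compared ectoderm peeled from the forelimb buds of 3 mouse embryos null for Sp8 and 3 wild-type embryos at E10.5. A library holds the ectoderm of both buds of a single embryo, taken off with forceps after trypsin. Wild-type embryos came from C57BL/6 matings. Null embryos came from intercrosses of Sp8+/- mice carrying an allele named Sp8-Cre-ERT2, and the strain given for both genotypes is C57BL6J. The genotypes thus came from different matings, so differences of genotype and of mating cannot be told apart here. Sp8 encodes a zinc finger protein of the Sp family that regulates transcription and is made in limb ectoderm. The labels do not say which part of the gene the null allele lacks.

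FGFs are secreted ligands that pair receptor tyrosine kinases at the cell surface with the help of heparan sulfate chains. The paired receptors phosphorylate one another and the docking proteins Frs2 and Frs3, which recruit adaptors that switch on Ras and the ERK kinases. In the limb bud, FGFs from the apical ectodermal ridge act on the mesenchyme beneath it, and FGF10 from the mesenchyme acts back on the ectoderm through the IIIb form of Fgfr2. This form is set by an alternative exon that encodes the second part of the third immunoglobulin-like domain and decides which ligands bind.

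The IIIb exon is printed because Fgfr2 is the leading receptor of this tissue and because a level per gene, as deposited, adds all its forms together. In the GENCODE M21 annotation of GRCm38 the exon lies at chr7:130199758-130199905 on the minus strand and is 148 bases long. Of 17 coding transcripts of Fgfr2, 10 hold it. It is given in lower case throughout, with no stretch marked.
Fgfr2 IIIb: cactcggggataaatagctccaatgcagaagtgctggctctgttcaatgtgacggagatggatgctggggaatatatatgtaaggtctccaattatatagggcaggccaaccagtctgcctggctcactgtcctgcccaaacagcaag

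Sp8 itself was listed at 0.766, 0.460 and 1.14 FPKM in Sp8 null embryos 1, 2 and 3 and at 8.35, 11.0 and 13.5 FPKM in wild-type embryos 1, 2 and 3. FPKM is a fragment count divided by transcript length and by the size of the library, so levels of different genes can be set side by side. The log2 fold change of Sp8 was -2.73 (SE 0.20, limma adjusted p = 0.000361), and all 3 nulls lay below all 3 wild types. Between 11835 and 12245 genes per library reached 1 FPKM, and depths relative to wild-type embryo 1 ran from 0.842 to 1.03. The 13 surface ectoderm markers summed to 751, 657 and 792 FPKM in the nulls and to 805, 855 and 782 FPKM in wild type. None of these 13 was listed at 0 in any library. The sum hides differences between markers: 1 was called higher and 1 lower in the nulls (limma adjusted p under 0.05). Of the 13, 5 had groups that did not overlap. The 14 limb mesenchyme markers summed to 97.3, 256 and 85.1 FPKM in the nulls and to 126, 75.0 and 109 FPKM in wild type, so Sp8 null embryo 2 stood above the rest. None of these 14 was listed at 0 in any library. Summed erythroid markers were at 163, 62.5 and 103 FPKM in the nulls and at 426, 36.4 and 11.6 FPKM in wild type, highest in wild-type embryo 1. The 7 macrophage markers summed to 2.72, 5.10 and 3.73 FPKM in the nulls and to 2.53, 1.69 and 1.70 FPKM in wild type, low in all libraries but higher in every null. Endothelial markers summed to 2.22 to 4.52 FPKM. The part of these cells in the results was not tested.

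Across the 6 libraries the members spanned a wide range of levels, and Fgfr2 led in both genotypes. In wild type the mean FPKM was 132 ± 4.66 (SD, n = 3) for Fgfr2, 16.6 ± 0.573 for Frs2, 7.20 ± 2.45 for Fgfr1 and 3.32 ± 0.437 for Fgfrl1. Below these lay Fgfbp1 at 1.95 ± 0.466, Fgfr3 at 1.31 ± 0.303, Frs3 at 0.280 ± 0.0564, Fgfbp3 at 0.277 ± 0.161 and Fgfr4 at 0.0162 ± 0.0168 FPKM. The ranges of neighbours in this order overlapped for Fgfbp1 and Fgfr3, and again for Frs3 and Fgfbp3, and were separate for the other neighbours. In the nulls Fgfbp1 (2.63 ± 0.330 FPKM, n = 3) stood above Fgfrl1 (2.32 ± 0.916 FPKM), with overlapping ranges, and Fgfrl1 overlapped Fgfr3. The rest of the order was as in wild type.

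**Figure D1:**
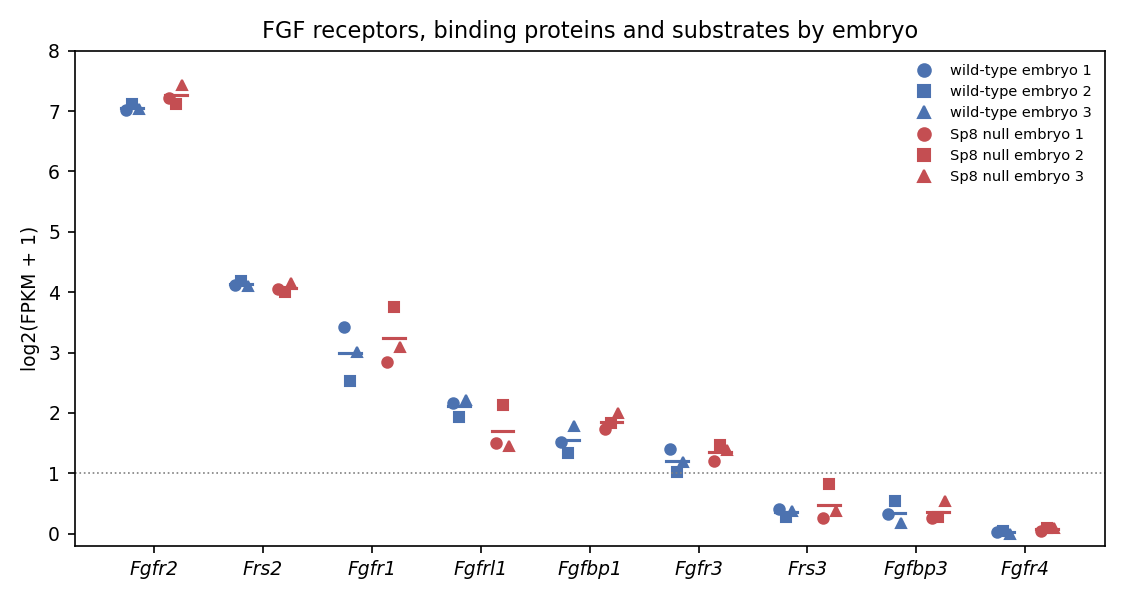
Level of each of the 9 members as log2(FPKM + 1), with 1 point per embryo and a line at the mean of each genotype; blue is wild type, red is Sp8 null, and the dotted line marks 1 FPKM. Fgfr2 lies far above the other members in all 6 embryos, and Frs3, Fgfbp3 and Fgfr4 lie under the line.

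No member passed the test between genotypes. Genes that reached 1 FPKM in 3 or more libraries were tested with limma on log2(FPKM + 1), and a gene was called when its p, adjusted by the Benjamini-Hochberg method over 12133 genes, was under 0.05. Of the 9 members 6 were tested and 0 were called, where 829 of all tested genes (6.83%) were called, 204 (1.68%) higher and 625 (5.15%) lower in the nulls. With upper-quartile scaling of the libraries the split of all calls was 363 higher and 501 lower. At an unadjusted limma p under 0.05 there were 0 members, against 24.0% of all tested genes. The median log2 fold change was 0.18 over the 6 tested members, 4 higher and 2 lower, and -0.06 over all tested genes. In bulk tissue, fewer cells of a type and less RNA per cell cannot be told apart.

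Fgfr2 encodes the receptor through which ectoderm answers FGF10. It was listed at 148, 138 and 172 FPKM in the nulls and at 129, 137 and 130 FPKM in wild type. Every null value lay above every wild-type value, but null embryo 2 and wild-type embryo 2 were almost level. The mean was 153 ± 17.5 FPKM in the nulls (n = 3) against 132 ± 4.66 FPKM. The log2 fold change was 0.20 (SE 0.09, 95% interval -0.0047 to 0.41, adjusted p = 0.217), which is a fold of 1.15 with an interval from 0.997 to 1.33. Fgfr2 was the 1 tested member of 6 whose groups did not overlap, and 29.8% of all tested genes had groups that did not overlap. The nulls' excess rested most on null embryo 3: without it the log2 fold change was 0.12 (adjusted p = 0.375). Upper-quartile scaling gave 0.30 (adjusted p = 0.051), and over all alternatives the adjusted p ran from 0.051 to 0.396. Sample names begin with 4 for embryo 1 of each genotype and with 5 for the others, for reasons the labels do not give. Among names with 5 Fgfr2 was at 138 and 172 FPKM in the nulls and 137 and 130 FPKM in wild type, and among names with 4 it was at 148 and 129 FPKM.

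The gene model of Fgfr2 (ENSMUSG00000030849) spans chr7:130162451-133123350 in GENCODE M21, on the minus strand, with 27 transcripts. In 1 of these transcripts an exon overlaps Ctbp2 on the same strand, a corepressor gene listed at 10.7 to 15.4 FPKM. Reads from that stretch could be counted for either gene. At the 97.2nd percentile of tested genes in wild type, Fgfr2 also stood 1st of 38 listed receptor tyrosine kinases in both genotypes, a list without the Eph receptors. The next was Igf1r, the insulin-like growth factor receptor, at 26.3 FPKM in wild type and 23.9 FPKM in the nulls. The wild-type mean of Fgfr2 was 5.03 times that of Igf1r.

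Fgfr1, the main FGF receptor of limb mesenchyme, varied more between embryos than between genotypes. Its gene (ENSMUSG00000031565) lies at chr8:25513654-25575718 on the plus strand. It was listed at 6.19, 12.5 and 7.53 FPKM in the nulls and at 9.70, 4.80 and 7.09 FPKM in wild type, with null embryo 2 highest, wild-type embryo 2 lowest and the groups overlapping. The log2 fold change was 0.24 (SE 0.28, 95% interval -0.42 to 0.90, adjusted p = 0.650). Without null embryo 2 it was -0.022, and without wild-type embryo 2 it was 0.014. Its exons overlap those of the antisense gene Gm16159, listed at 0.0701 to 0.850 FPKM.

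The level of Fgfr1 was set beside that of the mesenchymal markers. The mean log2(FPKM + 1) of 11 tested markers, here the mesenchymal score, was 2.80, 4.21 and 2.68 in the nulls and 3.12, 2.03 and 2.69 in wild type. The markers did not all follow 1 pattern: between genotypes 7 of the 11 had a higher and 4 a lower mean log2 value in the nulls, and 0 were called. Prrx1, a homeobox gene of limb mesenchyme named after its values were seen, was listed at 13.6, 53.3 and 12.0 FPKM in the nulls and at 16.5, 3.92 and 9.93 FPKM in wild type. Vim, an intermediate filament gene, was listed at 35.7, 40.3 and 30.9 FPKM and at 38.5, 32.9 and 40.1 FPKM. Over the 6 embryos Fgfr1 and the score had a Pearson r of 0.94 (exact permutation p = 0.00833, adjusted p = 0.05 over the 6 tested members) and a Spearman rho of 0.77 (exact permutation p = 0.103, adjusted p = 0.206). Leaving out null embryo 2 and wild-type embryo 2, the samples farthest from the median score, gave an r of 0.76. Among the 4 libraries whose sample names begin with 5, which include both of those embryos, r was 0.984, a value with no test. The 2 libraries with 4 allow none. With the score as a covariate, a model chosen after seeing the data, the log2 fold change of Fgfr1 was -0.13 (adjusted p = 0.644).

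No member had an adjusted p under 0.05 for this relation, and the larger r of Fgfr3 and Frs2 rested on those same embryos. For Fgfr3, r was 0.82 (exact permutation p = 0.0375, adjusted p = 0.075; rho 0.83, exact permutation p = 0.0583, adjusted p = 0.175), 0.47 without them and 0.84 among the 4 names with 5. For Frs2, r was -0.88 (exact permutation p = 0.0208, adjusted p = 0.0625; rho -0.83, exact permutation p = 0.0583, adjusted p = 0.175), -0.12 without them and -0.978 among the 4 names with 5. The r of the other tested members with the score was -0.14 for Fgfr2 (exact permutation p = 0.775), 0.32 for Fgfrl1 (exact permutation p = 0.568) and 0.43 for Fgfbp1 (exact permutation p = 0.417). Their adjusted p-values were 0.775, 0.682 and 0.625 by the same exact permutation test, and their rho was -0.20, 0.37 and 0.20, with exact permutation p of 0.714, 0.497 and 0.714. Without the embryos farthest from the median, r was -0.54 for Fgfr2, 0.43 for Fgfrl1 and -0.90 for Fgfbp1.

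**Figure D2:**
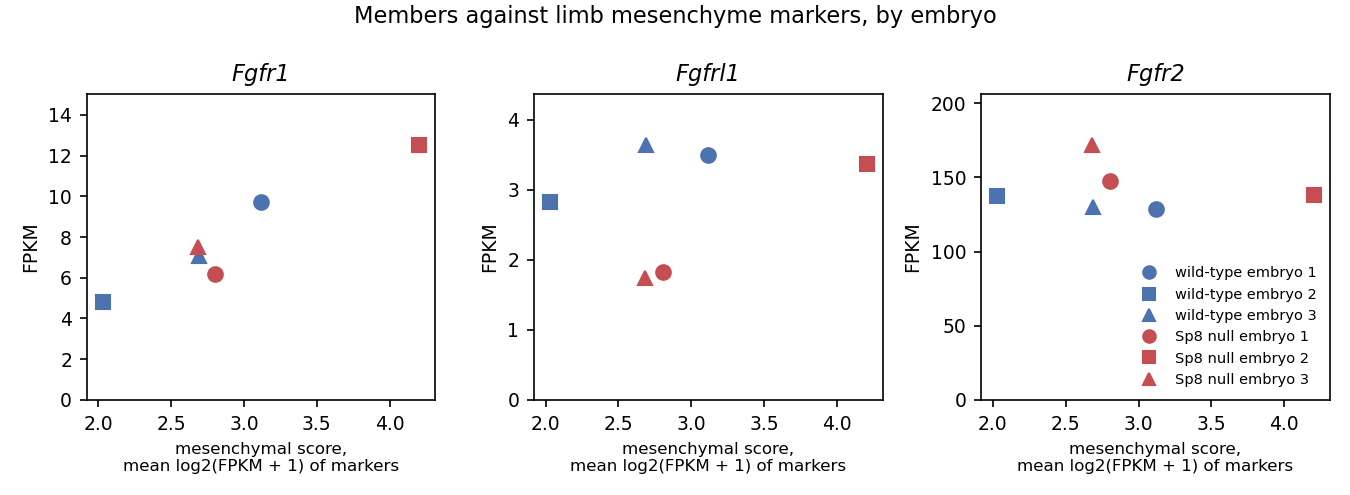
FPKM of Fgfr1, Fgfrl1 and Fgfr2 (y axes, from 0) against the mesenchymal score, the mean log2(FPKM + 1) of 11 limb mesenchyme markers (x axis), with 1 point per embryo. Fgfr1 is lowest at the lowest score (4.80 FPKM, wild-type embryo 2) and highest at the highest score (12.5 FPKM, null embryo 2). Between them the climb is not steady, with 7.53 FPKM in null embryo 3 (score 2.68) and 6.19 FPKM in null embryo 1 (score 2.80). Fgfrl1 is lowest in these same null embryos, 1 and 3.

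Fgfr3 and Fgfr4 were low. Fgfr3 (ENSMUSG00000054252; chr5:33721674-33737068, plus strand), known for its part in growing cartilage, was listed at 1.29, 1.76 and 1.61 FPKM in the nulls and at 1.63, 1.02 and 1.29 FPKM in wild type. The groups overlapped, and the log2 fold change was 0.15 (SE 0.14, 95% interval -0.18 to 0.47, adjusted p = 0.570). Without wild-type embryo 2 it was 0.056, without null embryo 2 it was 0.090, and without wild-type embryo 1 it was 0.24. Fgfr4 (ENSMUSG00000005320; chr13:55152640-55168759, plus strand), known in liver and muscle, was listed at 0.0267, 0.0667 and 0.0660 FPKM in the nulls and at 0.0150, 0.0335 and 0 FPKM in wild type. It was below the filter in all libraries and was not tested.

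The make-up of the receptor pool differed between genotypes by less than the spread between embryos for Fgfr1, Fgfr2 and Fgfr3. Of the summed FPKM of Fgfr1 to Fgfr4, Fgfr2 held 95.2%, 90.6% and 94.9% in the nulls and 91.9%, 95.9% and 94.0% in wild type. The means were 93.6% ± 2.57 and 93.9% ± 2.01 (n = 3 each, exact permutation p = 0.8, adjusted p = 1.0 over 4 receptors). Fgfr1 held 5.45% ± 2.39 and 5.14% ± 1.79 (exact permutation p = 0.8), Fgfr3 0.958% ± 0.171 and 0.936% ± 0.224 (exact permutation p = 1.0), and Fgfr4 0.0324% ± 0.0137 and 0.0114% ± 0.0117 (exact permutation p = 0.2). Adjusted over the 4 receptors, these 3 p-values were 1.0, 1.0 and 0.8. The smallest two-sided p that 3 embryos against 3 allow is 0.1. The sum of the 4 receptors was 155, 153 and 181 FPKM in the nulls and 140, 143 and 138 FPKM in wild type, which did not overlap (exact permutation p = 0.1, the smallest possible).

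**Figure D3:**
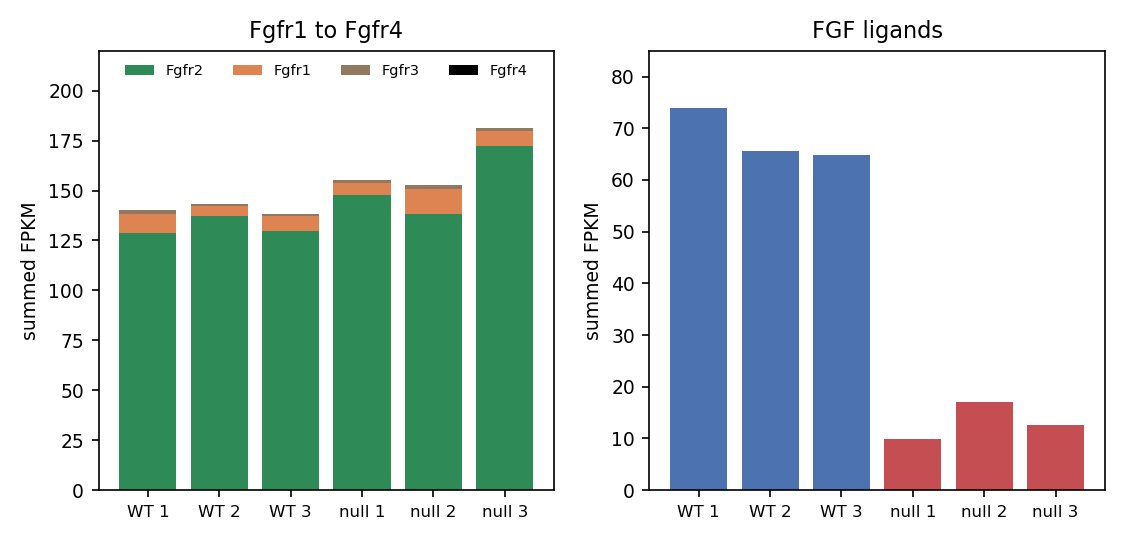
Summed FPKM per embryo of the receptors Fgfr1 to Fgfr4, stacked by receptor (left), and of 22 FGF ligands (right), with separate y axes that start at 0. The receptor sums lie between 138 and 181 in all 6 embryos, and the ligand sums are 64.8 to 74.0 in wild type and 9.99 to 17.1 in Sp8 null.

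Fgfrl1, which binds FGFs and heparan sulfate but lacks the tyrosine kinase domain, had the most negative log2 fold change of the tested members. Its gene (ENSMUSG00000008090) lies at chr5:108692382-108706924 on the plus strand. It was listed at 1.83, 3.37 and 1.74 FPKM in the nulls and at 3.49, 2.82 and 3.64 FPKM in wild type. Null embryos 1 and 3 lay below all wild-type embryos and null embryo 2 lay among them. The log2 fold change was -0.41 (SE 0.19, 95% interval -0.86 to 0.04, adjusted p = 0.245), and over all alternatives the adjusted p ran from 0.0391 to 0.459.

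The size of that difference depended on which null embryo was left out. Without null embryo 2, Fgfrl1 had a log2 fold change of -0.63 (adjusted p = 0.0521). Without null embryo 3 it shrank to -0.29 (adjusted p = 0.427), and without null embryo 1 to -0.31 (adjusted p = 0.459). With the mesenchymal score as a covariate, chosen after seeing the data, the log2 fold change was -0.65 (adjusted p = 0.0391), which was the one setting in which a member was called. The part of the mesenchymal cells in the level of Fgfrl1 was not tested. The log2 ratio of Fgfrl1 to Fgfr2 differed by -0.62 between nulls and wild type (exact permutation p = 0.2, adjusted p = 0.8 over 4 ratios). The log2 ratio differed by -0.04 for Fgfr2 over Fgfr1 (exact permutation p = 1.0, adjusted p = 1.0), by 0.06 for Fgfr2 over Fgfr3 (exact permutation p = 0.9, adjusted p = 1.0) and by 0.30 for Fgfbp1 over Fgfbp3 (exact permutation p = 0.4, adjusted p = 0.8).

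The stretch before the RefSeq start of Fgfrl1 is printed because this member lay lowest in the nulls against wild type, and because Sp family zinc fingers are known to bind GC boxes. The RefSeq table of promoters (GRCm38.p6) matched 8 of the 9 members, all but Fgfr1. Capitals mark the GC box GGGCGG, searched on both strands as GGGCGG or CCGCCC in the 250 bases before the RefSeq start, here chr5:108693979-108694228 on the plus strand. Fgfrl1 held 4 of them, in a window of 73.6% G and C. Of the 9 windows of the members 6 held at least 1, as did 32.7% of 32851 windows of all genes in the table. Fgfr2, Fgfbp1 and Fgfbp3 held 0, Frs2 and Fgfr4 held 2, Frs3 held 3, and the windows of Fgfr3 held 3 and 2. The window of Fgfr2 lies upstream of the starts of all GENCODE transcripts of the gene but one. That of Fgfrl1 lies inside the GENCODE span of its gene, which begins at chr5:108692382. A match in letters is no sign of binding, and no match says nothing of the factor.
Fgfrl1 promoter: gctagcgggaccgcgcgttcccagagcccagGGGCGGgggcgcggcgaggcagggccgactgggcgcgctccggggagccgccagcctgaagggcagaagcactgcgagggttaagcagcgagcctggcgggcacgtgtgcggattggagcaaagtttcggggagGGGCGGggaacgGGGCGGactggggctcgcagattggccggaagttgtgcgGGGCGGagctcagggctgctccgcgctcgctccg

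The binding proteins release FGFs from the matrix and carry them to receptors. Fgfbp1 (ENSMUSG00000048373; chr5:43978858-43981779, minus strand) was listed at 2.34, 2.56 and 2.98 FPKM in the nulls and at 1.87, 1.53 and 2.45 FPKM in wild type. Wild-type embryo 3 fell within the null range and the other wild-type embryos below it. The log2 fold change was 0.31 (SE 0.14, 95% interval -0.03 to 0.64, adjusted p = 0.244). Without wild-type embryo 2 it was 0.20, and without wild-type embryo 3 it was 0.42. Fgfbp3 (ENSMUSG00000047632; chr19:36917550-36919615, minus strand) was listed at 0.194, 0.206 and 0.452 FPKM in the nulls and at 0.253, 0.449 and 0.130 FPKM in wild type, with overlapping groups, and was not tested.

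Frs2, the docking protein at the higher level, was the steadiest member over the 6 embryos. Frs2 (ENSMUSG00000020170; chr10:117069427-117148534, minus strand) was listed at 15.6, 15.0 and 16.7 FPKM in the nulls and at 16.3, 17.2 and 16.2 FPKM in wild type. Its coefficient of variation over all 6 embryos was 4.88%, against 34.6% for Fgfr1 and 11.3% for Fgfr2. The log2 fold change was -0.07 (SE 0.07, 95% interval -0.24 to 0.10, adjusted p = 0.621), an interval that runs from a fold of 0.847 to 1.07. Its sign turned under upper-quartile scaling. Frs3 (ENSMUSG00000023266; chr17:47689030-47704286, plus strand) was listed at 0.190, 0.769 and 0.295 FPKM in the nulls and at 0.320, 0.215 and 0.304 FPKM in wild type, and was not tested. Its exons overlap those of the antisense gene Frs3os, listed at 0.210 to 0.916 FPKM, and the use of strand in counting is not given in the sources used here. In 1 transcript of Frs3 an exon also overlaps Tomm6os on the same strand, listed at 0.140 to 0.286 FPKM.

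The authors' deposited table placed some members differently. Its headers name a control and a sample group without a genotype, and Sp8 had a fold of -4.16 in the authors' deposited table. The authors' deposited table gave Fgfr2 a fold of 1.19 with a p-value of 0.000766. The authors' deposited table gave Fgfr3 a fold of 1.32 with a p-value of 0.00665, and Fgfrl1 a fold of -1.31, meaning lower in sample, with a p-value of 0.0214. Adjusted here over the tested genes, these p-values from the authors' deposited table were 0.00596, 0.0345 and 0.0860. Of the 6 tested members 3 were under 0.05 in the authors' deposited table, against 31.3% of all tested genes, and 2 after the adjustment, against 21.2%. For Fgfbp1 the authors' deposited table gave a fold of 1.30 and a p-value of 0.0531, and for Fgfr1 a fold of 1.18 and a p-value of 0.302. In the authors' deposited table Frs2 had a fold of -1.03 and a p-value of 0.544.

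Several FGF ligands fell. Of the receptors Fgfr1, Fgfr2, Fgfr3 and Fgfrl1 none passed the test, and Fgfr4 was not tested. Not passing does not show an unchanged level: the interval of Fgfr1 ran from -0.42 to 0.90. In the authors' deposited table the p-values of Fgfr2 and Fgfr3 stayed under 0.05 after adjustment, and those of Fgfr1 and Fgfrl1 did not. Of 22 ligand genes 8 were tested, 4 were called lower and 0 higher, where 6.83% of all tested genes were called. The list had a median log2 fold change of -0.70. Fgf8, the main ridge FGF, was listed at 0.460, 0.320 and 1.16 FPKM in the nulls and at 36.0, 31.3 and 30.2 FPKM in wild type (log2 fold change -4.38, adjusted p = 2.21e-05). Fgf4 was at 0.0589, 0.0327 and 0.0162 FPKM against 8.90, 9.73 and 12.1 FPKM, and Fgf9 at 0.680, 0.950 and 0.909 FPKM against 13.3, 10.2 and 8.56 FPKM. Their log2 fold changes were -3.43 (adjusted p = 1.5e-05) and -2.64 (adjusted p = 0.000164). The other called ligand, named after its values were seen, was Fgf1 (log2 fold change -0.84, adjusted p = 0.0123). The summed FPKM of Fgf8, Fgf4, Fgf9 and Fgf17, the FGFs of the ridge, was 1.64 ± 0.533 in the nulls and 54.3 ± 3.79 in wild type (n = 3 each), a ratio of 0.0301, where that of the receptor sum was 1.16.

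**Figure D4:**
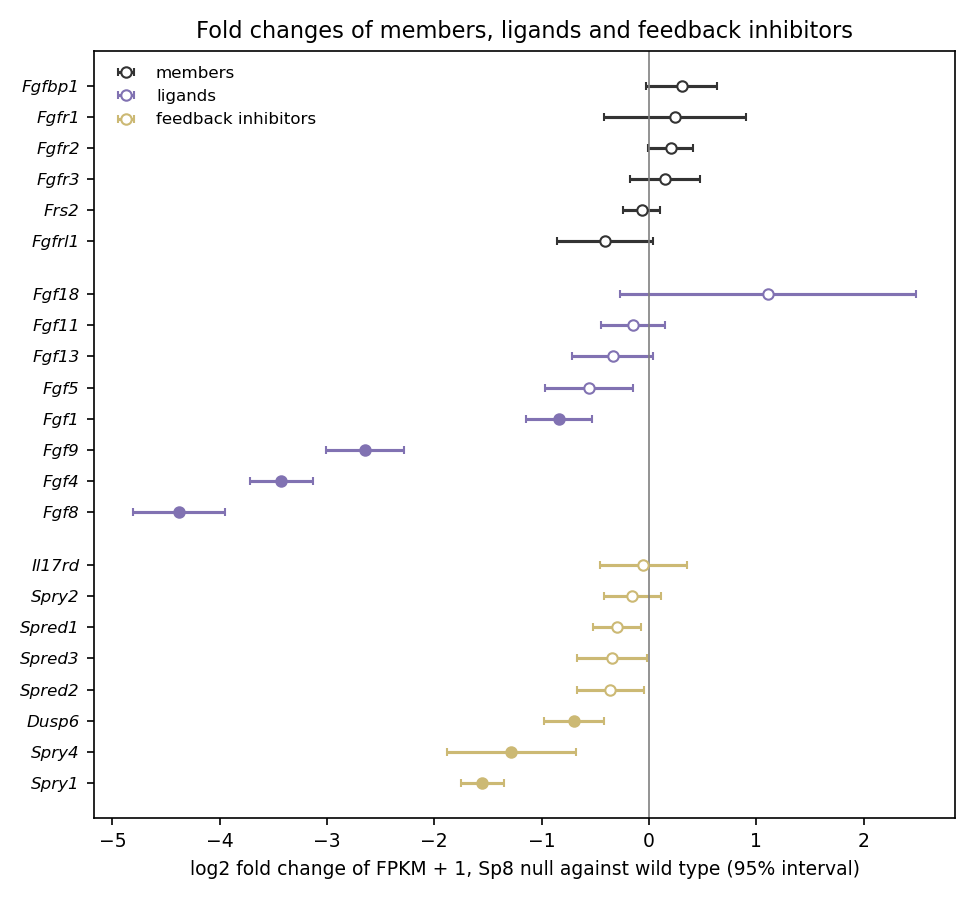
Log2 fold change of FPKM + 1 in Sp8 null against wild type (x axis), with 95% intervals, for the 6 tested members, 8 tested FGF ligands and 8 tested feedback inhibitors; filled points are called at an adjusted p under 0.05. The intervals of all 6 members include 0, and the 4 ligands and 3 inhibitors that are filled lie to the left.

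Feedback inhibitors, which FGF signalling switches on and which damp it, included 3 that fell. Of 9 in the list 8 were tested, 3 were called lower and 0 higher, with a median log2 fold change of -0.35. Spry1 was listed at 6.17, 5.15 and 6.00 FPKM in the nulls and at 18.9, 19.3 and 18.3 FPKM in wild type (log2 fold change -1.55, adjusted p = 0.000119). Spry4, another Sprouty inhibitor, was at 13.4, 6.47 and 14.5 FPKM against 25.5, 30.6 and 27.8 FPKM (log2 fold change -1.28, adjusted p = 0.0307). Dusp6, a phosphatase that inactivates ERK, was at 7.20, 5.69 and 7.15 FPKM against 13.0, 10.9 and 10.3 FPKM (log2 fold change -0.70, adjusted p = 0.0169). Spred2, the most abundant of the list over all 6 libraries though not within either genotype, had a log2 fold change of -0.36 (adjusted p = 0.155).

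Of 16 co-receptors and cell-surface proteoglycans 12 were tested, 1 was called higher and 0 lower, where 6.83% of all tested genes were called, and the median log2 fold change was 0.05. The one called was Flrt1, a leucine-rich repeat protein that binds FGF receptors, at 4.02, 3.74 and 3.93 FPKM in the nulls and 1.23, 0.999 and 1.36 FPKM in wild type (log2 fold change 1.16, adjusted p = 0.00113). Gpc3, a glypican and the most abundant of the list, had a log2 fold change of -0.25 (adjusted p = 0.281). Of 14 genes that make or trim heparan sulfate 12 were tested and 0 called, with a median of -0.15, and Sulf2, a sulfatase, was the most abundant (log2 fold change -0.15, adjusted p = 0.335).

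All 22 adaptors and members of the Ras and ERK relay were tested and 0 were called, with a median log2 fold change of -0.04. Nras, a Ras GTPase, was the most abundant (log2 fold change -0.27, adjusted p = 0.0919). The 4 splicing regulators were tested and 0 called, with a median log2 fold change of -0.05. Ptbp1, a repressor of exon inclusion, had the highest level (log2 fold change -0.23, adjusted p = 0.131). Esrp1 and Esrp2, epithelial factors known to favour exon IIIb of Fgfr2, were chosen after their values were seen. Esrp1 was listed at 55.0, 50.4 and 63.0 FPKM in the nulls and at 54.7, 64.9 and 59.8 FPKM in wild type (log2 fold change -0.09, adjusted p = 0.625). Esrp2 was listed at 16.7, 17.0 and 20.9 FPKM and at 18.6, 18.6 and 17.6 FPKM (log2 fold change -0.01, adjusted p = 0.953). The share of transcripts with the IIIb exon printed above cannot be read from a level per gene.

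**Figure D5:**
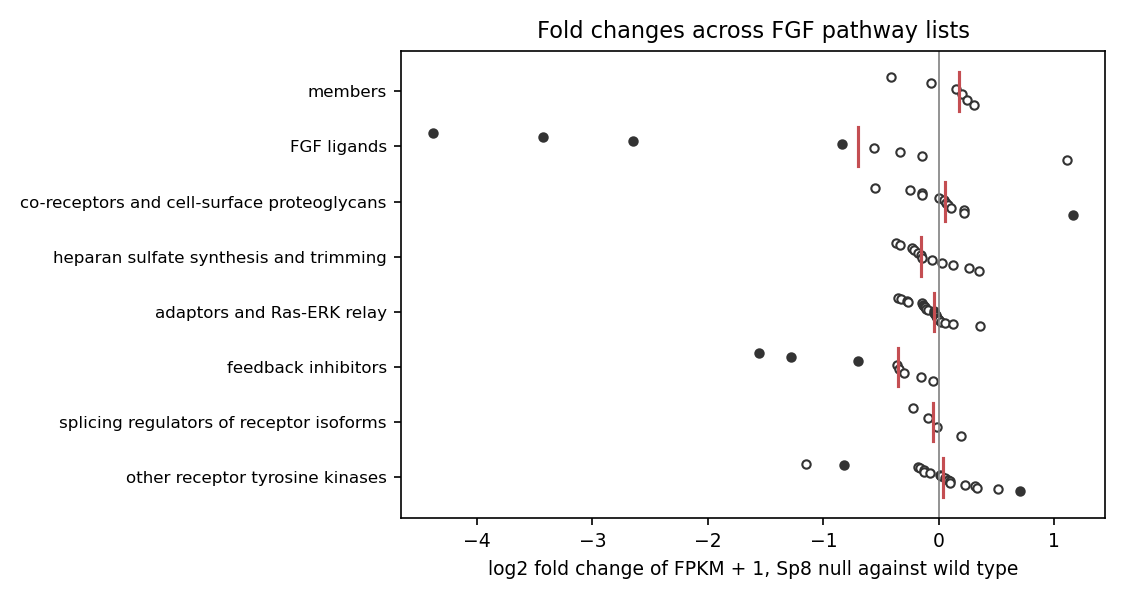
Log2 fold change of FPKM + 1 in Sp8 null against wild type (x axis) for every tested gene of the members and of 7 lists (y axis), with called genes filled and a red line at each list's median. The lowest points belong to the FGF ligands and the feedback inhibitors, and the members' median of 0.18 lies close to 0.

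The genes whose pattern over the 6 libraries was most like that of Fgfr2, the member with the smallest p, were Errfi1, S100a10 and Plekhb1. Pearson's r of log2(FPKM + 1) with Fgfr2 was 0.985, 0.980 and 0.979 among 12132 other tested genes, of which 15 had an r of 0.95 or more. Errfi1, an inhibitor of EGF receptor signalling, was listed at 39.7, 35.6 and 47.1 FPKM in the nulls and 30.6, 33.6 and 30.4 FPKM in wild type. S100a10, a partner of annexin A2, was listed at 52.0, 51.7 and 57.3 FPKM and at 48.1, 49.7 and 48.8 FPKM. Plekhb1, a protein with a pleckstrin homology domain, was listed at 1.21, 1.08 and 2.20 FPKM and at 0.450, 0.831 and 0.609 FPKM. All 3 were highest in null embryo 3, as Fgfr2 was. They were picked for their likeness to Fgfr2, so the shared peak is no separate result. Their adjusted p-values between genotypes were 0.0975, 0.280 and 0.110.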

How the data were processed

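Polyadenylated RNA of forelimb ectoderm was sequenced in 6 libraries, 3 per genotype, prepared with TruSeq v2 reagents, per the labels' protocols. The authors deposited FPKM for 49452 genes. They also deposited, per the file headers, a signed score for the fold and a p-value, whose test and adjustment are not given in the sources used here. TopHat2, SAMtools, Cufflinks, DESeq2 and FastQC are named without roles or versions in the submitters' processing notes, as is GRCm38, and the file headers name Ensembl build 87. All 54 estimates of the members had the status OK.

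FPKM was tested as log2(FPKM + 1), which understates the change of low genes, in genes at 1 FPKM or more in 3 or more libraries (12133). The fit used limma 3.58.1 (R 4.3.3) and a mean-variance trend, two-sided, adjusted by Benjamini-Hochberg over all tested genes. Shares, ratios and correlations used exact permutation tests in Python 3.11.15 and scipy 1.17.1, over 720 orders for a correlation. Only depth relative to wild-type embryo 1 could be had, so no count test or counting interval is given. Coordinates are from GENCODE M21. A further exon sequence is not reported here.

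The members and lists were chosen with earlier results of these data known. Named genes were Sp8, the members, up to 3 called genes with the largest change and the most abundant gene of each pathway list, and the 3 genes most like the member with the smallest p. Fgf1, Esrp1, Esrp2, Prrx1, Pdgfra and Fgf18 fall outside this rule and were named after their values were seen, as were genes that overlap a member. The covariate of mesenchymal markers was chosen after seeing the data. Other alternatives were pseudocounts, filters, scalings, weights, covariates and leaving out each library.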

Additional observations from a re-analysis of the deposited data

How the results depend on the processing

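Over 17 alternatives 0 members were called in 16 and 1, Fgfrl1, with the mesenchymal score as a covariate, chosen after seeing the data. Of 99 alternative log2 fold changes of members 95 kept their sign and their side of the threshold. The sign turned for Frs2 under upper-quartile scaling (0.023) and for Fgfr1 with the mesenchymal score as a covariate (-0.13) and without Sp8 null embryo 2, where leaving out 1 library at a time gave -0.022 to 0.46. The cause of each was not tested. The count of all genes called, 829, was 342 when low genes were kept (27766 tested), 545 with the first digit of the sample names as covariate, 481 with the mesenchymal score and 213 to 665 when 1 library was left out, lowest without wild-type embryo 2. Leaving out Sp8 null embryo 1 gave 397, Sp8 null embryo 2 447, wild-type embryo 1 363 and wild-type embryo 3 392. The cause was not tested beyond fewer samples or more genes in the fit.

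With the replicate block, the embryo number of the titles, 328 genes and 0 members were called. Same-numbered embryos did not deviate together (correlations of -0.16, -0.15 and -0.07). The labels give no link between them beyond the number and the first digit of the sample names. The paired fit is therefore no measure of a weaker effect. Of 56 alternative values of the receptor shares and ratios 44 kept their sign. The difference in the share of Fgfr2 was 0.489 percentage points with Fgfrl1 added to the sum, and when 1 library was left out it ran from -1.37 to 1.13, that of Fgfr1 from -1.07 to 1.21 and that of Fgfr3 from -0.0881 to 0.136. When 1 library was left out, the difference in log2 ratio ran from -0.27 to 0.29 for Fgfr2 over Fgfr1 and from -0.058 to 0.18 for Fgfr2 over Fgfr3, where a pseudocount of 0.1 gave -0.035. It ran from -0.90 to -0.41 for Fgfrl1 over Fgfr2, largest without Sp8 null embryo 2 and smallest without Sp8 null embryo 3. For Fgfbp1 over Fgfbp3 it ran from 0.096 without wild-type embryo 2 to 0.50 without wild-type embryo 3. Scaling moved the median of all tested genes from -0.06 to -0.02 (median of ratios) or 0.03 (upper quartile). Fgfr4, Fgfbp3 and Frs3 were below the filter, and with no filter all 9 members were tested and 0 called; an absolute depth to bound them is not known.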

Other observations

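Among 34 other receptor tyrosine kinases 18 were tested, and 1 was called higher and 1 lower, where 6.83% of all tested genes were called. Their median log2 fold change was 0.04. Ror1, a receptor for Wnt5a, was listed at 9.55, 7.41 and 9.50 FPKM in the nulls and at 5.27, 5.87 and 4.01 FPKM in wild type (log2 fold change 0.70, limma adjusted p = 0.0341). Egfr, the epidermal growth factor receptor, was listed at 6.84, 5.44 and 6.63 FPKM in the nulls and at 12.4, 12.8 and 10.4 FPKM in wild type (log2 fold change -0.82, limma adjusted p = 0.00766). Ror1 and Egfr moved in opposite directions, and neither pair of groups overlapped. Groups did not overlap for 5 of the 18 tested kinases and for 29.8% of all tested genes.

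Pdgfra and Fgf18, named after their values were seen, were far apart between null embryos. Pdgfra, a platelet-derived growth factor receptor that is also among the mesenchyme markers, was listed at 6.37, 19.6 and 6.01 FPKM in the nulls and at 23.8, 19.8 and 21.4 FPKM in wild type (log2 fold change -1.15, limma adjusted p = 0.120). Fgf18 was listed at 0.630, 7.58 and 1.88 FPKM in the nulls and at 1.59, 0.0662 and 0.456 FPKM in wild type (log2 fold change 1.11, limma adjusted p = 0.307). In both genes Sp8 null embryo 2, with the highest mesenchymal score of 4.21, was the highest null embryo, and the part of mesenchymal cells in these values was not tested.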
